A study of Mus musculus with 18 samples.

Results

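The salt-inducible kinases (SIKs) of the mouse are encoded by 3 genes, Sik1, Sik2 and Sik3, and each was measured by 1 transcript cluster, the set of probes that an array assigns to a gene. Members were taken by gene symbol from the array annotation, which gave 3 of the 23410 clusters that carry a symbol, out of 35556 clusters on the array. The family was selected on the measured levels of Sik1 in these same arrays, so all Sik1 values below are a description and carry no test. Sik2 and Sik3 entered by their family name, and their differences were tested. RNA came from mIMCD-3 cells, a single cell line derived from the inner medullary collecting duct of the mouse kidney, so no other line is sampled. In the first experiment cells received 1 µM AGN193109 with 0.2 µM all-trans retinoic acid (tRA), 1 µM AGN193109 alone, or vehicle. In the second they received 25 µM DEAB with 0.01 µM tRA, 25 µM DEAB alone, or vehicle. AGN193109 blocks the retinoic acid receptors (RARs), and DEAB blocks the enzymes, aldehyde dehydrogenases, by which cells produce tRA, so the design asks which genes respond when endogenous tRA signaling is reduced and which return when tRA is added. Every culture was treated for 24 h, the vehicle was 0.1% ethanol and 0.1% DMSO, and each of the 6 groups held 3 arrays from independent biological experiments.

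SIKs are serine/threonine kinases of the AMP-activated protein kinase (AMPK) family. The tumor suppressor kinase LKB1 switches them on, while protein kinase A, the effector of cAMP, phosphorylates them and holds them inactive through 14-3-3 proteins. Active SIKs phosphorylate the CRTC coactivators of CREB and the class IIa histone deacetylases, which keeps both in the cytoplasm. Sik1 was named after its induction in the adrenal glands of rats on a high-salt diet, and it is itself a CREB target gene.

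On mouse build GRCm38, Sik1 lies on chromosome 17 from 31844248 to 31855804. Sik2 and Sik3 share chromosome 9, at 50889644 to 51009132 and at 46012820 to 46224194, with 4665449 bases between them. The promoter windows of Sik2 and Sik3 are shown so that the members which did not pass the test below can be read for the motifs of the cAMP and retinoic acid pathways. They are the 250 bases before the start given in the RefSeq promoter table (GRCm38.p6), 5′ to 3′ along the gene, for Sik2 from chr9:51009074-51009323 on the minus strand and for Sik3 from chr9:46012570-46012819 on the plus strand. Capitals mark TGACG, the half-site of the cAMP response element bound by CREB, and AGGTCA, the half-site bound by RARs, on either strand.
Sik2: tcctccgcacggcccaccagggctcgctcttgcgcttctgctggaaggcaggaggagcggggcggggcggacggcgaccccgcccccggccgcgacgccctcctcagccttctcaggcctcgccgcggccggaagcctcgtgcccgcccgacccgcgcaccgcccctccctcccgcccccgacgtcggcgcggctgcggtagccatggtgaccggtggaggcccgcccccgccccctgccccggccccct
Sik3: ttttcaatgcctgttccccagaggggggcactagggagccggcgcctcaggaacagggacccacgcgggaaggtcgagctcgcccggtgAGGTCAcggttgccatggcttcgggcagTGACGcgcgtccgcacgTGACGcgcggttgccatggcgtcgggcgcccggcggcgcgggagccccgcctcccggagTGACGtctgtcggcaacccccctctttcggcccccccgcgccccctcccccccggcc
The Sik3 window held TGACG at 3 places, starting 133, 116 and 57 bases before the start, and AGGTCA at 1 place, 161 bases before it. The Sik2 window held neither motif and was the richer in G and C, at 80.0% of its bases against 74.0% in Sik3. The full element TGACGTCA, which contains TGACG, was in neither window. Of 32851 promoter windows of the same length, 17.8% held TGACG, 14.0% held AGGTCA and 1.55% held TGACGTCA on at least 1 strand. The Sik3 window also reaches Pafah1b2, whose annotated end lies 129 bases from the start of Sik3. The Sik2 window, from 51009074, overlaps the Sik2 span given above, which ends at 51009132, so part of it lies inside that span. A letter match is not a bound site, and a window without one says only that these letters are missing there.

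Values are log2 levels after Robust Multichip Average (RMA) normalization, so a difference of 1 is a doubling. All 3 kinases were bright on every array, at the 69.9th to 85.0th percentile of clusters with a symbol for Sik1, the 72.1st to 76.1th for Sik2 and the 71.8th to 78.8th for Sik3. Array medians lay between 7.23 and 7.33 for AGN193109 and between 7.48 and 7.51 for the DEAB arrays, and levels were compared only within an experiment. The labelled cell type was checked against its markers. Of collecting duct epithelium 7 of 8 markers, among them Cdh1 and Krt8, and of principal cells 6 of 11, among them Aqp2 and Scnn1a, were above the 30th percentile on every array, while Aqp4, Avpr2, Scnn1b, Scnn1g and Elf5 were not. Of the markers of intercalated cells 1 of 6 was above it, and of other kidney, stromal and blood cells 7 of 13, so this percentile is not a detection limit. By limma 0 of the 38 measured markers passed the test in each of the 6 comparisons, with or without replicate number as a block. Without the block 1 to 3 of them had an unadjusted p under 0.05, and with it 2 to 5. Of all 23410 clusters 418 to 1496 had such a p without the block and 1181 to 2764 with it.

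Sik1 was lower in cells given either inhibitor than in cells given vehicle, and higher in cells that also received tRA than in cells given the inhibitor alone. In the AGN193109 experiment its level was 10.08, 10.09 and 10.43 in AGN193109+tRA cells, 9.87, 9.77 and 10.04 in AGN193109 cells, and 10.64, 10.32 and 10.99 in vehicle cells, for replicates 1, 2 and 3. The AGN193109 arrays all lay below the AGN193109+tRA arrays and below the vehicle arrays, and replicate 3 was the highest array of each group. The AGN193109+tRA arrays overlapped with vehicle, because their replicate 3 exceeded replicate 2 of vehicle.

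AGN193109 cells had a Sik1 level of 9.89 ± 0.13, against 10.65 ± 0.33 in vehicle cells (SD, n = 3 each). The difference was -0.76 (SE 0.164), or 1.69-fold lower, and by replicate number it was -0.77, -0.55 and -0.96. This was the 56th lowest difference of the 23410 clusters. AGN193109+tRA cells averaged 10.20 ± 0.20. They were above AGN193109 cells by 0.31 (SE 0.164), with 0.21, 0.32 and 0.39 by replicate number, and the nearest arrays of these groups were 0.041 apart. Against vehicle cells their difference was -0.45 (SE 0.164), with -0.56, -0.23 and -0.57. In every replicate, cells with tRA at this dose had a Sik1 level between those of AGN193109 and vehicle. Leaving out 1 array changed these sizes. The difference of 0.31 was 0.19 without replicate 3 of AGN193109+tRA, and that of -0.45 was -0.28 without replicate 3 of vehicle. Both fits kept the replicate 3 arrays of the other groups, so the higher level of that replicate number enters these shifts.

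In the DEAB experiment the replicates were much closer together. Sik1 had levels of 11.15, 11.12 and 11.09 in DEAB+tRA cells, 10.24, 10.17 and 10.25 in DEAB cells, and 10.85, 10.86 and 10.82 in vehicle cells. The 3 groups did not overlap, with DEAB lowest, vehicle between and DEAB+tRA highest. DEAB+tRA cells averaged 11.12 ± 0.03, DEAB cells 10.22 ± 0.04 and vehicle cells 10.84 ± 0.02 (SD, n = 3 each). DEAB+tRA exceeded DEAB by 0.90 (SE 0.0416), or 1.87-fold, with 0.92, 0.95 and 0.84 by replicate number. DEAB differed from vehicle by -0.62 (SE 0.0416), or 1.54-fold lower, with -0.61, -0.69 and -0.57. These were the 29th highest and the 32nd lowest difference of the 23410 clusters. DEAB+tRA also exceeded vehicle, by 0.28 (SE 0.0416), with 0.31, 0.25 and 0.27, and the nearest arrays of these groups were 0.233 apart.

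Set side by side, Sik1 differed from vehicle by -0.45 with AGN193109+tRA and by 0.28 with DEAB+tRA, which are opposite signs. The tRA doses were 0.2 µM and 0.01 µM, so no comparison was made between these values. Within each experiment the arrays of inhibitor alone enter 2 comparisons and those of vehicle enter 2, so the 3 differences of an experiment share arrays. The spread between replicate numbers was unlike in the 2 experiments. The Sik1 means over the 3 groups for replicates 1, 2 and 3 were 10.19, 10.06 and 10.48 in the AGN193109 experiment, a span of 0.421, while with DEAB they spanned 0.029. With replicate number as a block the SE of the Sik1 differences was 0.0908 in the AGN193109 experiment, while with DEAB it was 0.0413. Fewer cells of a kind and less RNA per cell cannot be told apart in RNA from whole cultures.

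**Figure D1:**
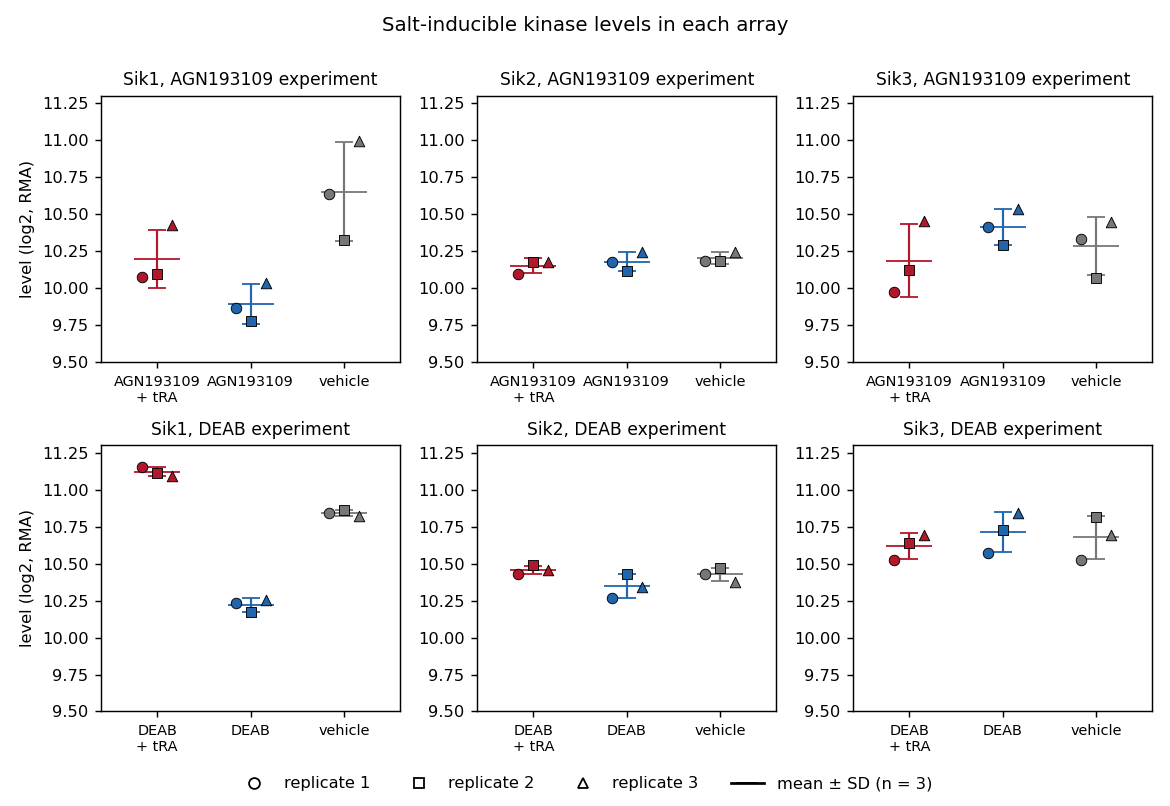
Log2 RMA level of Sik1, Sik2 and Sik3 in each of the 18 arrays, by group, with the AGN193109 experiment in the upper row and the DEAB experiment in the lower. Symbols mark the replicate number and lines the mean ± SD of 3 arrays; the Sik1 arrays of DEAB+tRA (11.09 to 11.15), DEAB (10.17 to 10.25) and vehicle (10.82 to 10.86) do not overlap, while the Sik3 groups overlap throughout.

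Sik2, known in fat and liver as a kinase of the CRTC coactivators, did not pass the test in any comparison. In the AGN193109 experiment its levels were 10.09, 10.18 and 10.18 in AGN193109+tRA cells, 10.18, 10.11 and 10.24 in AGN193109 cells, and 10.18, 10.18 and 10.25 in vehicle cells. All 9 arrays lay in a narrow band. The differences were -0.03 for AGN193109+tRA against AGN193109, -0.02 for AGN193109 against vehicle and -0.05 for AGN193109+tRA against vehicle (SE 0.0681, limma, adjusted p = 1.0 each). The 95% interval of the difference between AGN193109 and vehicle ran from -0.178 to 0.128.

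In the DEAB experiment Sik2 had levels of 10.43, 10.49 and 10.46 in DEAB+tRA cells, 10.27, 10.43 and 10.34 in DEAB cells, and 10.43, 10.47 and 10.38 in vehicle cells. The DEAB array was the lowest of its replicate number each time, although the groups overlapped. DEAB+tRA exceeded DEAB by 0.11 (SE 0.0519), with 0.16, 0.06 and 0.11 by replicate number and a 95% interval from -0.00698 to 0.229, and did not pass the test (limma, adjusted p = 0.806, and 0.374 with the block). DEAB differed from vehicle by -0.08, with -0.16, -0.04 and -0.04 (adjusted p = 1.0, and 0.699 with the block). DEAB+tRA differed from vehicle by 0.03 (adjusted p = 0.932). The signs of these 3 differences were those of Sik1, at a fraction of its size.

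Sik3, known from mice for roles in cartilage growth and sleep, did not pass the test either. Its levels were 9.98, 10.12 and 10.46 in AGN193109+tRA cells, 10.41, 10.29 and 10.54 in AGN193109 cells, and 10.33, 10.07 and 10.45 in vehicle cells. Replicate 3 was the highest array of each group, as for Sik1, and the groups overlapped. AGN193109+tRA differed from AGN193109 by -0.23 (SE 0.139), with -0.43, -0.17 and -0.08 by replicate number (limma, adjusted p = 1.0, and 0.937 with the block). AGN193109 differed from vehicle by 0.13, with 0.08, 0.22 and 0.09 (adjusted p = 1.0, and 0.883 with the block), and AGN193109+tRA from vehicle by -0.10 (adjusted p = 1.0). For AGN193109 against vehicle and for tRA added to AGN193109, Sik3 had the opposite sign to Sik1 in all 3 replicates. Leaving out 1 array changed the Sik3 sizes. The -0.23 was -0.36 without replicate 3 and -0.12 without replicate 1 of AGN193109+tRA. The 0.13 was 0.023 without replicate 2 and 0.21 without replicate 3 of vehicle. The same-numbered arrays of the other groups were kept, so differences between replicate numbers enter these shifts.

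The DEAB experiment gave Sik3 levels of 10.52, 10.64 and 10.70 in DEAB+tRA cells, 10.57, 10.73 and 10.84 in DEAB cells, and 10.52, 10.82 and 10.70 in vehicle cells. The 3 groups covered nearly the same range. DEAB+tRA differed from DEAB by -0.10 (SE 0.0926), with -0.05, -0.09 and -0.15 by replicate number (limma, adjusted p = 0.918, and 0.559 with the block). The -0.10 was -0.17 without replicate 1 and -0.030 without replicate 3 of DEAB, with the same-numbered arrays of the other groups kept. DEAB differed from vehicle by 0.03 and DEAB+tRA from vehicle by -0.06 (adjusted p = 1.0 and 0.924). The 95% interval of the difference between DEAB and vehicle ran from -0.176 to 0.245.

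Counted together, 0 of the 12 tests of Sik2 and Sik3 passed at an adjusted p under 0.05 in limma, with or without the block. The unadjusted p was under 0.05 in 0 of them without the block and in 2 with it (Sik2 for DEAB+tRA against DEAB, Sik3 for AGN193109+tRA against AGN193109). In these 2 comparisons it was under 0.05 with the block for 2764 and 1218 of all 23410 clusters. Over all 23410 clusters the share that passed without the block was 0.0214% for AGN193109+tRA against AGN193109, 0.0683% for AGN193109 against vehicle, 0.0% for AGN193109+tRA against vehicle, 0.325% for DEAB+tRA against DEAB, 0.0342% for DEAB against vehicle and 0.0% for DEAB+tRA against vehicle. With the block these shares were 0.0812%, 0.457%, 0.00427%, 1.5%, 0.303% and 0.0214% in the same order. Few clusters of any kind passed, so 0 of 2 in a comparison is near the background. With 3 arrays against 3, an exact permutation test of a single gene cannot go below p = 0.1, and the number of arrays limits the precision of every value here.

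The effect of AGN193109 minus that of DEAB, each against its own vehicle, was 0.06 (SE 0.0816) for Sik2 and 0.10 (SE 0.176) for Sik3, and neither interaction contrast passed (limma, adjusted p = 1.0 each). Over the 18 arrays, each taken minus the mean of its experiment, Sik1 had a Pearson r of 0.621 with Sik2 and 0.0011 with Sik3, and Sik2 had 0.366 with Sik3. The pair of Sik1 and Sik2 kept its sign within both experiments (0.54 and 0.689, AGN193109 first), whereas Sik1 and Sik3 had 0.209 and -0.336. These arrays share treatments and replicate numbers, so r is a description only.

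**Figure D2:**
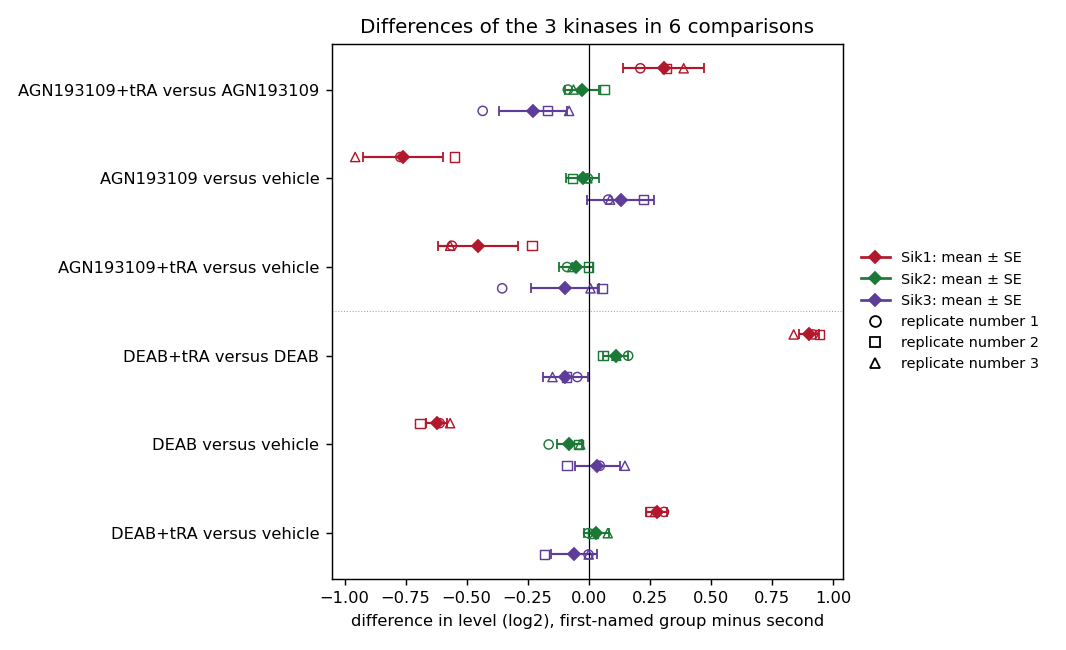
Difference in log2 level, the first-named group minus the second, for Sik1 (red), Sik2 (green) and Sik3 (purple) in the 6 comparisons. Diamonds and bars show the mean ± SE of the limma fit to the 9 arrays of each experiment (3 arrays a group). Open symbols show the differences by replicate number. The mean of Sik1 runs from -0.76 (AGN193109 against vehicle) to 0.90 (DEAB+tRA against DEAB), while the means of Sik2 and Sik3 stay between -0.23 and 0.13. Single replicate differences of Sik3 run from -0.43 (AGN193109+tRA against AGN193109) to 0.22 (AGN193109 against vehicle).

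The genes next to each kinase were read as well. Sik1 lies between U2af1 and Cryaa on one side and Hsf2bp and Rrp1b on the other, each at least 88964 bases away. Their differences in the 6 comparisons ran from -0.11 to 0.15, both ends belonging to Rrp1b, a nucleolar protein gene, for DEAB against vehicle and for DEAB+tRA against DEAB. Each was nearer to 0 than the Sik1 difference of the same comparison. The family was selected on the Sik1 levels, so smaller values in its neighbours are a description only. Around Sik2 and Sik3 the values ran from -0.24 for Fdxacb1 in DEAB+tRA against DEAB to 0.19 for Hoatz in DEAB against vehicle. Ppp2r1b, which encodes a scaffold subunit of protein phosphatase 2A, overlaps the Sik2 span, and its differences lay between -0.09 and 0.05.

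Of the genes that act before and after the kinases, 84 were listed in 7 lists and 79 were measured by a cluster with 1 symbol. Without the block 0 of 79 passed the test in each of the 6 comparisons. The unadjusted limma p was under 0.05 for 4, 8, 2, 14, 3 and 4 of the 79. Of all 23410 clusters it was under 0.05 for 501, 772, 418, 1496, 948 and 1403. Both rows of counts are in the order AGN193109+tRA against AGN193109, AGN193109 against vehicle, AGN193109+tRA against vehicle, DEAB+tRA against DEAB, DEAB against vehicle and DEAB+tRA against vehicle. The fit with the block treated same-numbered arrays as paired. In that fit 4 of 79 (5.06%) passed for AGN193109 against vehicle, 5 of 79 (6.33%) for DEAB+tRA against DEAB, 1 of 79 (1.27%) for DEAB against vehicle, and 0 for the other 3 comparisons. The shares of all clusters for the first 3 of these were 0.457%, 1.5% and 0.303%. The lists were made with earlier results of these data known, and the calls of both fits were known as well. The shares are therefore a description, and whether the lists hold more such genes than other clusters was not tested. The list medians stayed close to 0, at 0.03 for AGN193109 against vehicle and -0.02 for DEAB+tRA against DEAB, beside 0.02 and 0.01 over all clusters. The 6 genes that passed were Nuak2, Dusp1, Atf3, Nr4a1, Ptger4 and Pde4b, from 3 of the 7 lists, and each passed only in the fit with the block among these 2 fits.

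Of the other kinases that LKB1 activates 1 of 11 passed, Nuak2, a kinase of the AMPK family. Its levels were 10.19, 9.68 and 9.80 in AGN193109 cells, against 10.95, 10.41 and 10.41 in vehicle cells, which do not overlap. The difference was -0.70 (SE 0.251), with an adjusted p of 1.0 in limma and of 0.0273 with the block. In DEAB+tRA cells Nuak2 had levels of 11.08, 11.54 and 11.55, against 10.67, 11.04 and 11.01 in DEAB cells, again without overlap. That difference was 0.48 (SE 0.164), with an adjusted p of 0.633 in limma and of 0.0114 with the block. Nuak2 thus had the signs of Sik1 in both comparisons, and its relatives Snrk and Nuak1 had values of -0.24 and -0.27 for DEAB+tRA against DEAB and did not pass. Of the 5 genes of the LKB1 complex 0 passed, and its named members Stradb, Cab39 and Strada, which encode the pseudokinases and the scaffold that hold LKB1 active, had differences between -0.13 and 0.13.

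Of the 16 measured genes of the cAMP arm, 1 passed for AGN193109 against vehicle and 1 for DEAB+tRA against DEAB. Ptger4 encodes the prostaglandin E2 receptor EP4, which raises cAMP. It had levels of 9.93, 10.07 and 10.41 in AGN193109 cells, against 9.39, 9.64 and 9.80 in vehicle cells, with every AGN193109 array above every vehicle array. The difference was 0.52 (SE 0.143), with an adjusted p of 0.843 in limma and of 0.0307 with the block. Ptger4 also stood 0.20 above vehicle in DEAB cells, without overlap, where it did not pass (adjusted p = 0.83, and 0.271 with the block). Pde4b encodes a phosphodiesterase that breaks down cAMP. Its levels were 8.51, 8.76 and 8.75 in DEAB+tRA cells, against 8.78, 9.05 and 9.01 in DEAB cells, a difference of -0.27 (SE 0.0901) with an adjusted p of 0.602 in limma and of 0.0475 with the block. Its relative Pde4d had a value of -0.19 in that comparison and did not pass.

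Of 14 measured CREB target genes, 2 passed for AGN193109 against vehicle, 3 for DEAB+tRA against DEAB and 1 for DEAB against vehicle, and they did not share a direction. Dusp1, a phosphatase that inactivates MAP kinases, had levels of 12.81, 12.44 and 12.16 in DEAB+tRA cells, 12.24, 11.79 and 11.48 in DEAB cells, and 12.53, 12.18 and 11.89 in vehicle cells. The groups overlapped, yet within every replicate number DEAB+tRA was the highest and DEAB the lowest. DEAB+tRA exceeded DEAB by 0.64 (SE 0.235, limma adjusted p = 0.702, and 0.000717 with the block). DEAB differed from vehicle by -0.37 (adjusted p = 1.0, and 0.0219 with the block), with -0.29, -0.40 and -0.41 by replicate number. The -0.37 was -0.57 without replicate 1 and -0.19 without replicate 3 of DEAB. Those fits kept the same-numbered vehicle array, so differences between replicate numbers enter these 2 values. In the AGN193109 experiment Dusp1 had levels of 11.81, 12.25 and 12.30 in AGN193109+tRA cells, 11.31, 11.79 and 11.66 in AGN193109 cells, and 11.94, 12.24 and 12.20 in vehicle cells. AGN193109 differed from vehicle by -0.54 (SE 0.161, adjusted p = 1.0, and 0.0226 with the block), and AGN193109+tRA exceeded AGN193109 by 0.53, which did not pass (adjusted p = 1.0, and 0.0644 with the block). Dusp1 therefore had the signs of Sik1 in these 4 comparisons.

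Atf3, a stress-induced transcription factor, had levels of 10.97, 11.08 and 10.87 in DEAB+tRA cells, against 10.55, 10.67 and 10.53 in DEAB cells. These do not overlap, and the difference was 0.39 (SE 0.0715, limma adjusted p = 0.0912, and 0.00495 with the block). In AGN193109 cells the Atf3 difference from vehicle was 0.00 (SE 0.262, adjusted p = 1.0). Nr4a1, an orphan nuclear receptor of the immediate early response, ran the other way. It had levels of 10.52, 10.76 and 11.20 in AGN193109 cells, against 9.82, 10.30 and 10.32 in vehicle cells, a difference of 0.68 (SE 0.216, adjusted p = 1.0, and 0.0265 with the block). In DEAB+tRA cells its levels were 9.84, 9.55 and 9.51, against 10.10, 9.92 and 10.03 in DEAB cells, a difference of -0.38 (SE 0.106, adjusted p = 0.384, and 0.0335 with the block). Nr4a1 had the opposite sign to Sik1 in both of these comparisons.

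**Figure D3:**
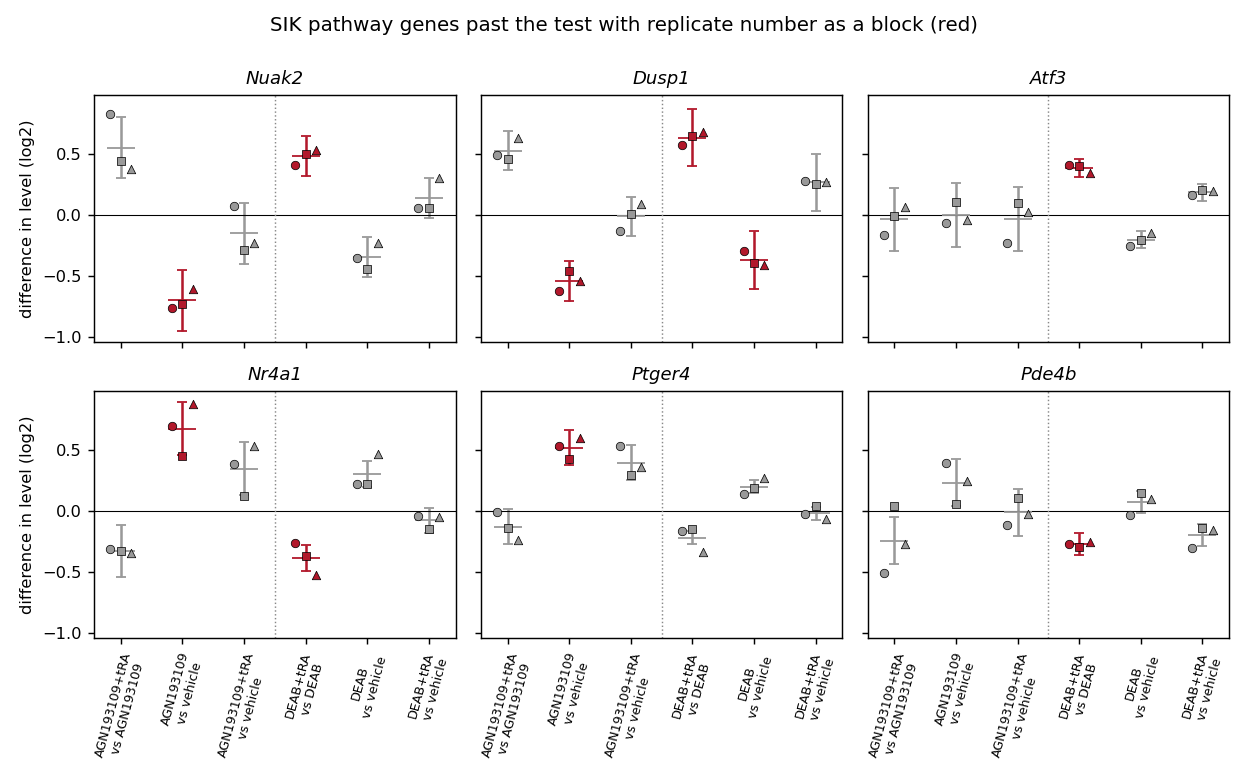
Difference in log2 level of the 6 pathway genes that passed the test with replicate number as a block in any comparison, with each comparison on the x axis; symbols show replicate numbers 1 (circle), 2 (square) and 3 (triangle), bars the mean ± SE without the block, and red the comparisons that passed. Nuak2 and Dusp1 lie below 0 for AGN193109 against vehicle (-0.70 and -0.54) and above 0 for DEAB+tRA against DEAB (0.48 and 0.64), and Nr4a1 has the opposite signs (0.68 and -0.38).

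The remaining lists held no gene that passed in either fit. Of the 17 SIK substrates and their partners, 14 had a positive difference for AGN193109 against vehicle, with a median of 0.09 beside 0.02 over all clusters, and 14 had a negative one for AGN193109+tRA against AGN193109, with a median of -0.06 beside -0.01. Both comparisons use the same AGN193109 arrays. For DEAB against vehicle 11 of the 17 were positive, with a median of 0.02 beside -0.00013 over all clusters. For DEAB+tRA against DEAB 13 were negative, with a median of -0.03 beside 0.006. The share of all clusters with each sign is not given, so these counts are a description. Mef2d, a transcription factor that class IIa histone deacetylases hold in check, was the member with the smallest unadjusted p, at a difference of 0.27 for AGN193109 against vehicle (limma, adjusted p = 1.0, and 0.297 with the block). A second, less bright Mef2d cluster had 0.45 in that comparison and did not pass without the block. The clusters of the deacetylase gene Hdac4 disagreed, at -0.07 and 0.47 for AGN193109 against vehicle, and neither passed. Of 7 genes for 14-3-3 proteins the named ones, Ywhaq, Ywhah and Sfn, had differences between -0.20 and 0.07. Of 9 measured genes of sodium handling, Scnn1a, the alpha subunit of the epithelial sodium channel, had -0.18 for AGN193109 against vehicle and -0.20 for DEAB against vehicle and did not pass. With tRA added Scnn1a was still lower than in vehicle cells, at -0.18 for AGN193109+tRA and -0.22 for DEAB+tRA, which did not pass either.

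The clusters most like Sik1 were found by Pearson r over the 18 arrays, each value minus the mean of its experiment, among 15363 clusters with 1 symbol that were not dim. They were Eva1a (r = 0.957), a gene of autophagy and cell death, Lasp1 (0.943), an actin-binding protein gene, Adgra1 (0.939), an adhesion G protein-coupled receptor gene, Bcl3 (0.926), a member of the IκB family, and Ripor2 (0.907), an inhibitor of RhoA. All 5 were lower with either inhibitor than with vehicle, and higher with tRA added than with the inhibitor alone. For AGN193109 against vehicle their differences ran from -0.64 (Adgra1) to -0.30 (Lasp1), beside -0.76 for Sik1. For DEAB+tRA against DEAB they ran from 0.22 (Lasp1) to 0.65 (Ripor2), beside 0.90 for Sik1. For DEAB+tRA against vehicle they ran from 0.06 (Lasp1) to 0.29 (Ripor2), beside 0.28 for Sik1. The same 5 headed the order by Spearman correlation and without the filter on dim clusters. They were picked for this likeness, so their pattern is a description.

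**Figure D4:**
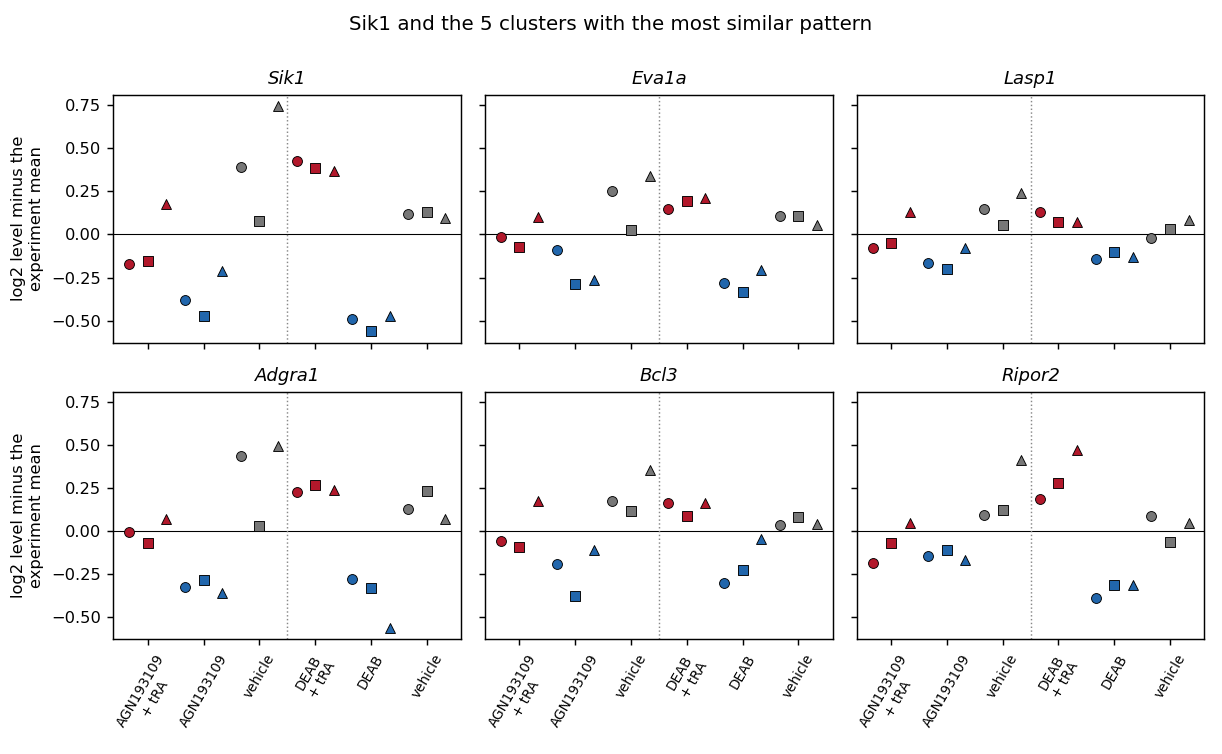
Log2 level minus the mean of the experiment for Sik1 and the 5 clusters with the highest Pearson r to it (0.907 to 0.957), in 18 arrays, with the AGN193109 experiment left of the dotted line and the DEAB experiment right of it. Red marks inhibitor with tRA, blue the inhibitor alone and grey vehicle, and circles, squares and triangles mark replicates 1, 2 and 3; blue points lie lowest on either side of the Sik1 panel.

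The clusters nearest in pattern to Sik2 and Sik3 were other genes than those named for Sik1. Nearest to Sik2 were 4930523C07Rik (r = 0.808), Creb3 (0.807), which encodes a membrane-bound transcription factor of the endoplasmic reticulum, and Nat8f1 (0.806). Of these, 4930523C07Rik and Creb3 had the signs of Sik1 in all 6 comparisons. For AGN193109 against vehicle they had -0.20 and -0.30, while Nat8f1 had 0.03. Nearest to Sik3 were Rbbp9 (0.939), Zbtb4 (0.932) and Tesk2 (0.93). Those of Sik3 had negative differences for AGN193109+tRA against AGN193109, from -0.20 to -0.15, beside -0.23 for Sik3 itself. None of the 6 was among the 5 named for Sik1. All 6 were picked for likeness to Sik2 or Sik3 in these arrays, so their pattern is a description.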

How the data were processed

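RNA of 18 cultures was labelled and read on Mouse Gene 1.0 ST arrays of Affymetrix. The authors normalized them by RMA in Affymetrix Expression Console and deposited log2 values, which were used as they are; its version is not given in the sources used. Of 35556 clusters, 23410 carried a gene symbol (1621 of them several) and were tested, and 12146 carried none. Each experiment was fitted with limma 3.58.1 in R 4.3.3 (9 arrays, group means, moderated variances, Benjamini-Hochberg over 23410 clusters), and an adjusted p under 0.05 counted as passing.

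A second fit took replicate number as a block, with the calls of both fits known from earlier work. The series' design text describes independent biological experiments. Residuals from the group means correlated by more than 0.1 between same-numbered arrays, in 9 of 9 pairs per experiment (0.198 to 0.645 for AGN193109, 0.179 to 0.614 for DEAB). Between arrays of different numbers they ran from -0.575 to 0.205 and from -0.511 to 0.312. Of those pairs 1 of 18 with AGN193109 and 5 of 18 with DEAB were also over 0.1.

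Arrays were grouped by title and vehicle arrays were given their experiment from how their short names are written. Some labels spell the compound AGN193110 or AGN193099; the titles' AGN193109 was used. The members and gene lists were chosen with earlier results of these data known. Named genes were the members, the 3 genes of each list with the smallest unadjusted p, the nearest 2 measured genes on each side of each kinase, and the 5 clusters most like Sik1 and 3 most like Sik2 and Sik3. Ppp2r1b, which overlaps Sik2, Hdac4, whose clusters disagree, and the second Mef2d cluster were added after their values were seen. A gene with several clusters was read from the brightest. Of the listed genes Gnas and Prkaca had only clusters with several symbols, and some others are not reported here. Positions and promoter windows are RefSeq's (GRCm38), and the Sik1 window was not used here. Alternatives are given at the end. Figures used matplotlib 3.10.9 in Python 3.11.15.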

Additional observations from a re-analysis of the deposited data

Results flagged for a closer look

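For 9 of the named genes every replicate number moved one way with AGN193109 and the other way with DEAB in some comparison. Each named gene was read in several comparisons, and the share of all clusters that does the same is not given. The count of 9 is therefore a description without a background, and some of the values lie close to 0. For inhibitor with tRA against vehicle, Sik1 had -0.45 with AGN193109 and 0.28 with DEAB. Of the clusters picked for their likeness to Sik1, 4 did the same, with -0.20 and 0.095 for Eva1a, -0.32 and 0.10 for Adgra1, -0.21 and 0.086 for Bcl3 and -0.28 and 0.29 for Ripor2, AGN193109 first. The difference between the experiments was not tested for these 5, which were chosen for this pattern or for likeness to it. Nr4a1 had 0.35 with AGN193109 and -0.076 with DEAB in the same comparison. For tRA added to the inhibitor, Mef2c, a transcription factor gene, had -0.19 with AGN193109 and 0.11 with DEAB, and Sidt2, a neighbour of Sik3, had 0.075 and -0.0031. For the inhibitor against vehicle, Layn, a neighbour of Sik2, had 0.046 and -0.12. As interaction contrasts over the 18 arrays none of the last 4 passed (limma, adjusted p = 1.0 each, and 0.471, 0.999, 0.999 and 0.934 with the block, in the order given). The unadjusted p was under 0.05 with the block only, for Nr4a1 (0.00291) and Mef2c (0.0156). Except for the inhibitor against vehicle, these contrasts set tRA at 0.2 µM beside tRA at 0.01 µM, so dose and inhibitor cannot be told apart in them.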

How the results depend on the processing

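Results were recomputed with replicate number as a block, with quantile normalization again, with array medians subtracted, without dim clusters, with all clusters, with only the 6 arrays compared, with all 18 arrays in 1 fit, with limma's trend and robust options and without each array in turn. Of 102 Sik1 values 100 kept their sign and moved by less than 1 SD between replicates, which is wide with AGN193109 and narrow with DEAB. Many of these could not move, so this count is no measure of stability. A difference of group means changes only with the normalization or when an array of either group compared is left out. Of 348 values of Sik2 and Sik3 336 kept their sign and their side of the threshold, whatever their size. Sik1 in DEAB+tRA against vehicle was 0.31 after quantile normalization, beside 0.28. The fits without 1 array used no block and kept the same-numbered arrays of the other groups, so differences between replicate numbers enter their ranges. Leaving out 1 array gave 0.19 to 0.38 for Sik1 in AGN193109+tRA against AGN193109. It moved Sik2 to 0.071 to 0.15 in DEAB+tRA against DEAB and to -0.12 to -0.041 in DEAB against vehicle. It also turned signs near 0, with ranges of -0.060 to 0.0040 for Sik2 in AGN193109+tRA against AGN193109 and -0.056 to 0.0074 in AGN193109 against vehicle. For Sik3 the ranges were -0.23 to 0.0071 in AGN193109+tRA against vehicle, -0.042 to 0.11 in DEAB against vehicle and -0.14 to 0.0085 in DEAB+tRA against vehicle, and between the experiments -0.012 to 0.18 for the inhibitor effect and -0.17 to 0.067 for inhibitor with tRA. Of 79 pathway genes 4, 5 and 1 passed with the replicate block for AGN193109 against vehicle, DEAB+tRA against DEAB and DEAB against vehicle, beside 0 in each without it, and 1 (Atf3) passed for DEAB+tRA against DEAB with trend and robust options. Of all clusters the block passed 19, 107, 1, 351, 71 and 5, beside 5, 16, 0, 76, 8 and 0 without it, in the order of the report. Without 1 array and without the block the first 5 of these counts were 0 to 5, 7 to 17, 0, 22 to 64 and 5 to 11, lowest without replicate 2 or 3 of AGN193109+tRA, replicate 1 of vehicle or of AGN193109, replicate 2 of DEAB+tRA and replicate 2 of DEAB for the 4 that changed. Elsewhere AGN193109 against vehicle passed 2 with only the 6 arrays compared, 8 with all clusters and 54 with all 18 arrays in 1 fit, AGN193109+tRA against AGN193109 passed 0, 0 and 9, and DEAB+tRA against DEAB passed 25 and 45 under the first 2 of these and 123 with trend and robust options. DEAB against vehicle passed 5 with only the 6 arrays compared and 13 without dim clusters. The block changed no call of Sik2 or Sik3. The causes were not tested. Only 3 arrays a group limit these values, and the median SE over clusters was 0.104 with AGN193109 and 0.0699 with DEAB.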
